A study of Mus musculus with 6 samples.

Results

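The transcripts described here are those of 9 genes of hepatic heme metabolism: 7 enzymes of heme synthesis (Alas1, Alad, Uros, Urod, Cpox, Ppox and Fech), the biliverdin and flavin reductase Blvrb, and Por, the electron donor of microsomal cytochrome P450 enzymes. They were taken by gene name from 2 tables of liver RNA sequencing that list 54320 genes, and all 9 were among the 13787 tested genes, those whose mean level reached 0.5 FPKM (fragments scaled to gene length and library size). The 6 libraries were made from whole liver RNA of C57BL/6 mice that were 11 weeks old and had been fed a diet labelled MCD for 3 weeks. In 3 of them (HKO) the genotype was HuRflox/flox Alb-Cre+/-, where HuR is a protein that binds RNA. The albumin promoter drives the recombinase in hepatocytes, and the labels do not say in which liver cells the gene was lost or kept. The other 3 (flox) carried HuR flox/flox, with no Cre in the label. No group on a control diet and no mice without floxed alleles were analysed here, so that diet and loxP sites are common to both groups. The labels do not say that each library is a separate mouse, so p-values measure only the spread between these libraries. The comparison asks which liver transcripts differ with hepatocyte HuR on this diet.

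Heme is made from glycine and succinyl-CoA in a pathway that starts in mitochondria, runs through the cytosol and ends in mitochondria, where iron is placed in the porphyrin ring. In liver the first enzyme, 5-aminolevulinate synthase encoded by Alas1, limits the rate, and heme lowers its production and its import into mitochondria. Cytochrome P450 enzymes of the endoplasmic reticulum are major users of hepatic heme and receive electrons from NADPH through the flavoprotein encoded by Por. Heme is opened by heme oxygenase to biliverdin, which is then reduced to bilirubin.

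Reads assigned to genes numbered 16769082 to 20633215 in the libraries labelled HKO and 18040015 to 18329040 in those labelled flox. The flox libraries were the less alike: the highest value of a tested gene over its lowest had a median of 1.21 among HKO libraries and 2.01 among flox libraries. Flox 2 stood apart in other measures as well, since 16608 genes had reads there and 19920 to 22067 in each of the other 5 libraries. Its mitochondrial share of reads was 2.26%, where the other 5 had 4.34% to 4.69%. The HuR gene, Elavl1, was not lower under the HKO label (5.77, 4.28 and 4.91 FPKM, against 3.51, 2.36 and 2.99 FPKM in those labelled flox). It was higher in every HKO than in any flox library, as were 15.3% of tested genes (limma, adjusted p = 0.208 for Elavl1). Every direction below is therefore between labels. The Elavl1 values sum reads over the whole gene, and no source used here names the floxed exons. The 8 hepatocyte markers in the tables were present in all libraries and summed to 45520 to 58743 FPKM in HKO and 44950 to 58011 FPKM in flox libraries. They did not move together: Alb, at 34748 to 45562 FPKM in HKO and 30115 to 36357 FPKM in flox libraries, had the higher mean in HKO, whereas Apoa1, at 5371 to 6892 FPKM in HKO and 7954 to 14622 FPKM in flox libraries, and Ass1, at 631 to 738 FPKM in HKO and 919 to 1677 FPKM in flox libraries, were lower in every HKO library. Limma called 2 of the 13787 genes (Benjamini-Hochberg adjusted p under 0.05), and neither was among the 9.

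Promoter windows of RefSeq on GRCm38.p6, from 250 bases before to 50 bases after a transcript start, were at hand for 8 of the 9 genes, in 12 windows. The windows of Alas1 and Por are shown because these were the 2 genes whose groups did not overlap, and that of Cpox because its flox libraries differed most. All are printed 5′ to 3′ on the strand of the gene. In Alas1 (chr9:106247905-106248204, minus strand) capitals mark the palindromic motif of nuclear respiratory factor 1 (NRF1). In Por (chr5:135688895-135689194, plus strand) they mark the GC box GGGCGG on either strand. In Cpox (chr16:58669958-58670257, plus strand) they mark AGATAA, read by transcription factors of the GATA family, here on the opposite strand.
Alas1: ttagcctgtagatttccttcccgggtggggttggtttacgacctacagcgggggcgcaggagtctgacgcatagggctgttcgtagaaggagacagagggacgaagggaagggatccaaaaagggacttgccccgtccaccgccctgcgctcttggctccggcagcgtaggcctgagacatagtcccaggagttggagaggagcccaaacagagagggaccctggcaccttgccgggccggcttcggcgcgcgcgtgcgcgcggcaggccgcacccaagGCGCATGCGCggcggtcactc
Por: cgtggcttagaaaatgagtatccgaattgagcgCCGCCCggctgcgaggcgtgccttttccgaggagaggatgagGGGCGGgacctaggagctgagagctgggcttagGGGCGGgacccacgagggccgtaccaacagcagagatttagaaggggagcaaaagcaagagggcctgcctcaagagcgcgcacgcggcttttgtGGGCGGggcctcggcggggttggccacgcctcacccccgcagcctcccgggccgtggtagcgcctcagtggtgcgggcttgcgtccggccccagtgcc
Cpox: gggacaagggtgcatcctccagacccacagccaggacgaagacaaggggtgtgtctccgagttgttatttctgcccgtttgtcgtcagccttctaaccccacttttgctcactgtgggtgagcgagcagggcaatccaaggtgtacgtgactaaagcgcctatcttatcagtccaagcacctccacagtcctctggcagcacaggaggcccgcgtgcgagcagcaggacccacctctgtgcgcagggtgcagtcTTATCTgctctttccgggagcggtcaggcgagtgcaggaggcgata

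The windows were searched on both strands, and a match says only that the letters are there. The NRF1 motif was in both windows of Alas1, in no window of the other 7 genes searched, and in 0.971% of all 32851 promoter windows. Counted from the start as +1, it lay at position 30 in the window printed and at position -195 from the other Alas1 start. The E-box CACGTG, a site of clock and other basic helix-loop-helix factors, was in windows of Alad, Urod and Uros and in 7.15% of all windows. AGATAA was in the Cpox window and in 11.2% of all windows. GGGCGG was in windows of every gene searched except Cpox and in 35.7% of all windows, and Por had 4 of them. Neither the cAMP response element TGACGTCA (1.79% of all windows) nor the nuclear receptor core site AGGTCA (16.3%) was in any of the 12 windows. CCAAT was in windows of Alad, Ppox and Urod (37.4% of all), and TATAAA was in none (13.6% of all). In the 3 windows printed, no match overlapped a match of another motif.

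HuR binds AU-rich stretches of messenger RNA, so the 3′ untranslated regions annotated by GENCODE M21 on GRCm38 were searched for ATTTA, using the longest such region of each gene. Alas1 (582 bases), Por (548), Alad (80), Urod (322), Ppox (65) and Blvrb (267) held none. Among tested genes within 10% of the same length, the share with at least 1 was 53.2% for Alas1, 49.8% for Por, 13.8% for Alad, 37% for Urod, 7.25% for Ppox and 38.1% for Blvrb. Uros held 1 in 623 bases, Cpox 6 in 1629 bases and Fech 9 in 5243 bases. Of 11541 tested genes with such a region 68.1% held at least 1, and among genes within 10% of the region's length the median was 2 for Cpox and 9 for Fech. The longer TATTTAT was in Fech alone of the 9, and in 28.5% of all genes. Of the Cpox sites, 3 are shown with the pentamer in capitals, because Cpox is the gene with the most for its length, 3.68 per 1000 bases. They are on chromosome 16, plus strand, at chr16:58679618-58679638, chr16:58679850-58679870 and chr16:58679981-58680001, in this order.
Cpox site a: ttattattATTTAaataagtg
Cpox site b: tattttttATTTAaaaaatgg
Cpox site c: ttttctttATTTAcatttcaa

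Across the 9 genes, Alas1 and Por were lower in every library labelled HKO than in any labelled flox, and the groups of the other 7 overlapped. Limma called 0 of the 9 after adjustment over all genes, where it called 0.0145% of all genes. On the recovered reads, limma's voom also called 0 of the 9. At an unadjusted p under 0.05 there were 2 of the 9, Por and Alas1, against 20.9% of all genes. Groups did not overlap downward for 2 of the 9, against 16.7% of all genes, and upward for 0 of the 9, against 15.3%. Of the 9 differences 5 were negative, with a median of -0.43 on the log2(FPKM + 0.5) scale, and of all tested genes 50.1% were negative, with a median of -0.00. The scale understates the change of genes with low values. In whole liver, fewer cells of a type and less RNA per cell cannot be told apart.

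**Figure D1:**
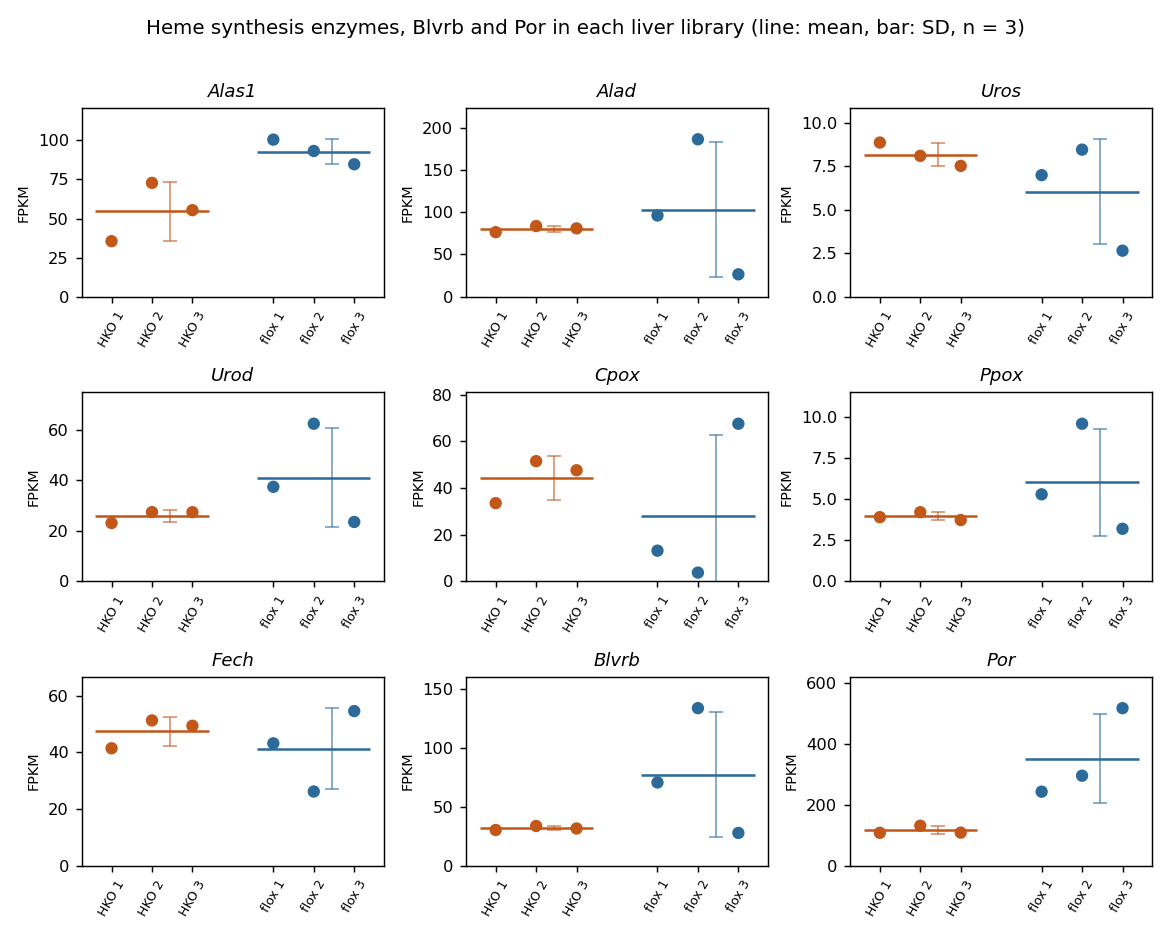
Level of each gene in FPKM (vertical axis, linear from 0) in each library (horizontal axis), with libraries labelled HKO at the left and flox at the right; lines are group means and bars SDs (n = 3 each), cut at 0 where they would pass below it. Alas1 and Por have HKO values below all flox values, while the flox values of Cpox run from 3.65 to 67.6 FPKM around the HKO values of 33.5 to 51.5 FPKM.

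Alas1 (ENSMUSG00000032786; GRCm38.p6 chromosome 9, 106233455 to 106248654, minus strand) encodes the rate-limiting first enzyme. Its level was 35.5, 72.8 and 55.4 FPKM in HKO 1, 2 and 3, against 101, 93.3 and 84.7 FPKM in flox 1, 2 and 3. The lowest flox library was thus above the highest HKO library, and HKO 1 was the lowest of the 6. The means were 54.6 ± 18.7 FPKM in HKO and 92.8 ± 7.90 FPKM in flox libraries (SD, n = 3 each). On the log2 scale HKO minus flox came to -0.82 (SE 0.30), which did not pass (limma, adjusted p = 0.214; 0.0147 to 0.526 over all alternatives). The exact two-sided permutation p was 0.1, the smallest that 3 against 3 allows. Alas1 was the only gene of the 9 with a wider spread in HKO than in flox libraries (log2 range 1.03 and 0.24). Its flox range was narrow for these libraries, since 93.7% of tested genes had at least as wide a one. An antisense gene on the opposite strand, 4930500F10Rik, overlaps 695 bases at the end of the gene that holds the transcript start, and was at 0 FPKM in all 3 HKO libraries, and at most 0.0533 FPKM in the flox libraries.

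The next enzymes work in the cytosol. Alad (chromosome 4, 62509169 to 62519918, minus strand), which joins 5-aminolevulinate molecules into porphobilinogen, was at 76.4, 83.7 and 81.0 FPKM in HKO 1, 2 and 3, and at 96.2, 187 and 26.5 FPKM in flox 1, 2 and 3. The HKO libraries lay close together, inside the span of the flox libraries. Its log2 difference was 0.04 (SE 0.66; limma, adjusted p = 0.977). Without flox 3 the value was -0.74 (limma, adjusted p = 0.0870; 0.0870 to 0.996 over all alternatives), so its sign hung on that library.

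Uros (chromosome 7, 133686243 to 133710072, minus strand) encodes the synthase that closes the ring as uroporphyrinogen III. It was at 8.87, 8.10 and 7.53 FPKM in HKO and at 6.99, 8.46 and 2.65 FPKM in flox 1, 2 and 3, a log2 difference of 0.54 (SE 0.40; limma, adjusted p = 0.436). The groups overlapped, with flox 3 lowest and flox 2 within the HKO range. Uros shares 740 bases with Bccip on the opposite strand, which was the higher of the pair at 27.7 to 28.8 FPKM in HKO and 23.1 to 28.3 FPKM in flox libraries. No source used here says if counting used strand, and without it reads from the shared bases cannot be told apart. Urod (chromosome 4, 116989965 to 116994413, minus strand), which removes carboxyl groups from uroporphyrinogen, was at 23.1, 27.4 and 27.4 FPKM in HKO and 37.5, 62.5 and 23.5 FPKM in flox 1, 2 and 3. Its log2 difference was -0.55 (SE 0.36; limma, adjusted p = 0.387). Flox 3 alone of the flox libraries lay inside the HKO range.

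The last enzymes belong to mitochondria. Cpox (chromosome 16, 58670208 to 58680391, plus strand), which oxidizes coproporphyrinogen, was at 33.5, 51.5 and 47.6 FPKM in HKO and at 13.1, 3.65 and 67.6 FPKM in flox 1, 2 and 3. Flox 3 was the highest of the 6 libraries, and flox 1 and 2 the lowest. The flox values differed 18.5-fold, and 0.602% of tested genes had a log2 range as wide among flox libraries. The log2 difference was 1.49 (SE 0.93; limma, adjusted p = 0.364). Without flox 3 it was 2.55 (limma, adjusted p = 0.0175; 0.00149 to 0.701 over all alternatives), and without flox 2 it was 0.53.

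Ppox (chromosome 1, 171275990 to 171281186, minus strand), which oxidizes protoporphyrinogen to protoporphyrin, had the lowest HKO level of the 9. It was at 3.89, 4.19 and 3.71 FPKM in HKO and 5.27, 9.56 and 3.18 FPKM in flox 1, 2 and 3, a log2 difference of -0.43 (SE 0.37; limma, adjusted p = 0.488). Flox 3 was below all HKO libraries, and flox 1 and 2 were above them. Ppox shares 907 bases with B4galt3 on the opposite strand, which was at 1.93 to 2.14 FPKM in HKO and 1.79 to 2.38 FPKM in flox libraries. Fech (chromosome 18, 64456550 to 64489066, minus strand), the ferrochelatase that inserts iron, was at 41.5, 51.3 and 49.4 FPKM in HKO and 43.2, 26.2 and 54.6 FPKM in flox 1, 2 and 3. The groups overlapped, with flox 3 the highest and flox 2 the lowest library. Its log2 difference was 0.25 (SE 0.30; limma, adjusted p = 0.623), the sign of which turned without flox 2 (-0.04; limma, adjusted p = 0.931; 0.164 to 0.977 over all alternatives).

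Blvrb (chromosome 7, 27447978 to 27466144, plus strand) encodes a reductase of biliverdin and flavins that is abundant in red cells. It was at 30.2, 33.6 and 31.5 FPKM in HKO and at 70.6, 134 and 27.7 FPKM in flox 1, 2 and 3. Flox 1 and 2 were above every HKO library and flox 3 was below them. The log2 difference was -1.0 (SE 0.53; limma, adjusted p = 0.309), and without flox 3 it was -1.60 (limma, adjusted p = 0.0158; 0.001 to 0.565 over all alternatives).

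Markers of blood, immune cells and bile ducts differed between libraries too. The erythroid list (12 genes of 13 in the tables, mostly globin reads) summed to 241 to 346 FPKM in HKO libraries and to 348, 789 and 217 FPKM in flox 1, 2 and 3. Among flox libraries that is the order of Alad, Uros, Urod, Ppox and Blvrb, with flox 2 highest and flox 3 lowest. Klf1, an erythroid transcription factor gene, ran the other way among flox libraries, at 1.27, 0.569 and 2.47 FPKM in flox 1, 2 and 3. Of the defining genes Epb42 was at 0 in all libraries, and Gata1 was at 0.0198 FPKM or less in HKO libraries and at 0 in all flox libraries. Alas2, the erythroid form of the first enzyme, was at 12.7 to 14.8 FPKM in HKO and 8.83 to 18.2 FPKM in flox libraries. Neutrophil markers summed to 2.55 to 4.30 FPKM in HKO and 22.8 to 47.3 FPKM in flox libraries, with Ly6g at 0 in all. All 9 genes of the Kupffer cell and macrophage list were detected, and they summed to 253 to 423 FPKM in HKO and 503 to 734 FPKM in flox libraries. Of these 9, 6 were lower in every HKO library than in any flox library, against 16.7% of tested genes, whereas Vsig4, Adgre1 and Timd4 overlapped. The sums of the 4 cholangiocyte markers lay the opposite way, at 12.3 to 24.0 FPKM in HKO and 5.79 to 10.3 FPKM in flox libraries. Of the 4, only Epcam and Sox9 were higher in every HKO library (2 of 4, against 15.3% of tested genes), and Krt19 and Krt7 overlapped. The part of these cells in the values of the 9 genes was not tested.

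Por (chromosome 5, 135670033 to 135735326, plus strand; ENSMUSG00000005514) was the most abundant of the 9 in both groups and differed most between them relative to its error. It was at 108, 131 and 108 FPKM in HKO 1, 2 and 3, against 243, 295 and 517 FPKM in flox 1, 2 and 3. Every flox library was above every HKO library, and flox 3 was the highest. The means were 116 ± 13.3 FPKM in HKO and 352 ± 146 FPKM in flox libraries (SD, n = 3 each). The log2 difference was -1.53 (SE 0.32; limma, unadjusted p = 0.00218, adjusted p = 0.157; exact two-sided permutation p = 0.1). It was -1.21 without flox 3, the library farthest from the HKO libraries, and then passed (limma, adjusted p = 0.0147; 0.000878 to 0.526 over all alternatives). An opposite-strand gene that overlaps 2955 bases of Por, Gm43091, was at 0.114 FPKM or less in HKO libraries. It was at 0.128, 0 and 4.63 FPKM in flox 1, 2 and 3. As for Uros, reads from the shared bases cannot be told apart if counting did not use strand.

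Por was also set beside the transcripts of the enzymes it serves. The 55 microsomal P450 genes of the list that are in the tables summed to 5241, 7152 and 5659 FPKM in HKO 1, 2 and 3 and to 6080, 6223 and 12673 FPKM in flox 1, 2 and 3. Flox 3, the library with the most Por, thus had the most P450 transcript as well. Per 1000 FPKM of summed P450, Por was at 20.5, 18.3 and 19.1 FPKM in HKO libraries, against 39.9, 47.5 and 40.8 FPKM in flox libraries. The flox libraries lay closer together on this ratio than on Por itself, and the groups did not overlap. The means were 19.3 ± 1.13 in HKO and 42.7 ± 4.11 in flox libraries (SD, n = 3 each), a log2 difference of -1.14 (exact two-sided permutation p = 0.1, the smallest possible). Alas1 per 1000 FPKM of P450 was at 6.78, 10.2 and 9.79 in HKO libraries and at 16.5, 15.0 and 6.69 in flox 1, 2 and 3. Here flox 3 lay below the HKO libraries, and the log2 difference was -0.43 (exact two-sided permutation p = 0.4).

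**Figure D2:**
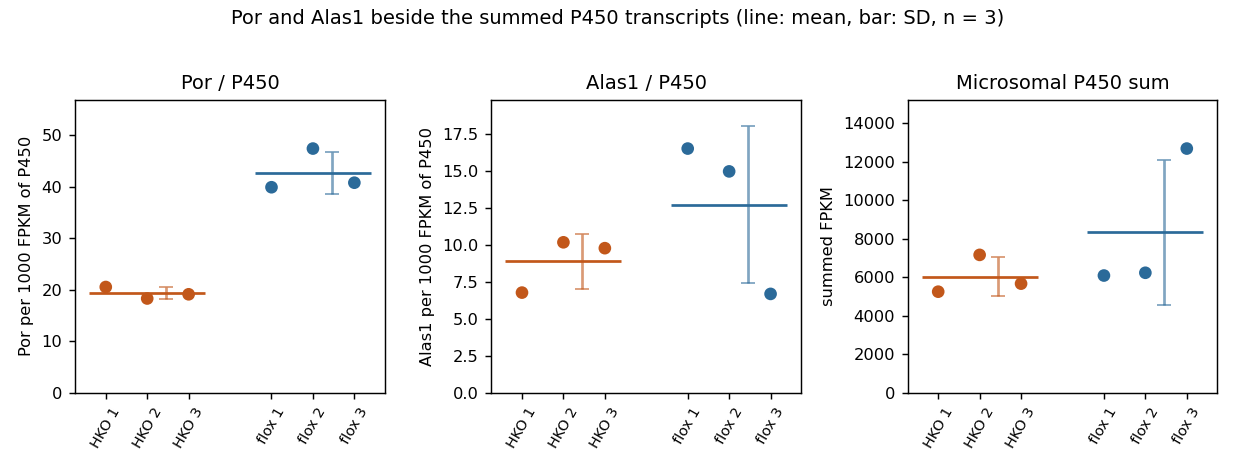
Por and Alas1 FPKM per 1000 FPKM of summed microsomal P450 (left and middle) and the sum itself in FPKM (right) in each library, HKO at the left and flox at the right of each panel; lines are means and bars SDs (n = 3 each). The Por ratio lies between 18.3 and 20.5 in HKO and between 39.9 and 47.5 in flox libraries, while the Alas1 ratio of flox 3, 6.69, lies with HKO 1 at 6.78.

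Within the flox group the 9 genes did not vary together. Alad, Uros, Urod, Ppox and Blvrb were highest in flox 2 and lowest in flox 3 (5 of 9; 31.9% of tested genes had this order), and Cpox and Fech were highest in flox 3 and lowest in flox 2 (2 of 9; 36.5% of tested genes). Alas1 ran from flox 1 down to flox 3, and Por from flox 3 down to flox 1. By the root mean square difference of centred log2 values over the 6 libraries, Urod and Ppox were the most alike pair (0.106) and Cpox and Blvrb the least alike (2.21). Of the 9 genes 8 had a wider log2 range among flox than among HKO libraries, and so had 89.2% of all tested genes.

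The GC content of the transcripts moved with this pattern. The values of all tested genes had a slope of 0.75 on the log2 scale per 10 percentage points of GC in flox 2 and 0.23 in flox 1, against -0.24 in flox 3 and -0.27 to -0.21 in the HKO libraries. Among the 9 genes the GC content of the longest annotated transcript was lowest in Fech (46.0%) and Cpox (47.7%), which were lowest in flox 2. It was 50.3% in Uros, 53.1% in Ppox, 53.5% in Alas1, 53.7% in Blvrb, 53.9% in Urod, 56.2% in Alad and 58.3% in Por. After removal of each library's trend with GC content, which was chosen after seeing the data, the flox range of Fech was 0.47, against 1.05 before. That of Cpox was 3.65, against 4.04 before, and that of Alad 2.10, against 2.79 before. Urod (0.95, against 1.39), Ppox (1.09, against 1.45) and Blvrb (1.83, against 2.25) narrowed too. The flox range did not narrow for all. It was 1.69 for Por, against 1.09 before, 1.54 for Uros, against 1.51, and 0.30 for Alas1, against 0.24. Por remained without overlap, at a log2 difference of -1.09 (SE 0.45; limma, adjusted p = 0.245), whereas the groups of Alas1 then overlapped, at -0.59 (SE 0.29; limma, adjusted p = 0.297). Limma called 0 of the 9 in that fit, against 0.0298% of 13405 genes with a GC value (0.00746% lower and 0.0224% higher), and 1 of the 9, Por, had an unadjusted p under 0.05 (0.0464), against 20.1% of those genes.

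**Figure D3:**
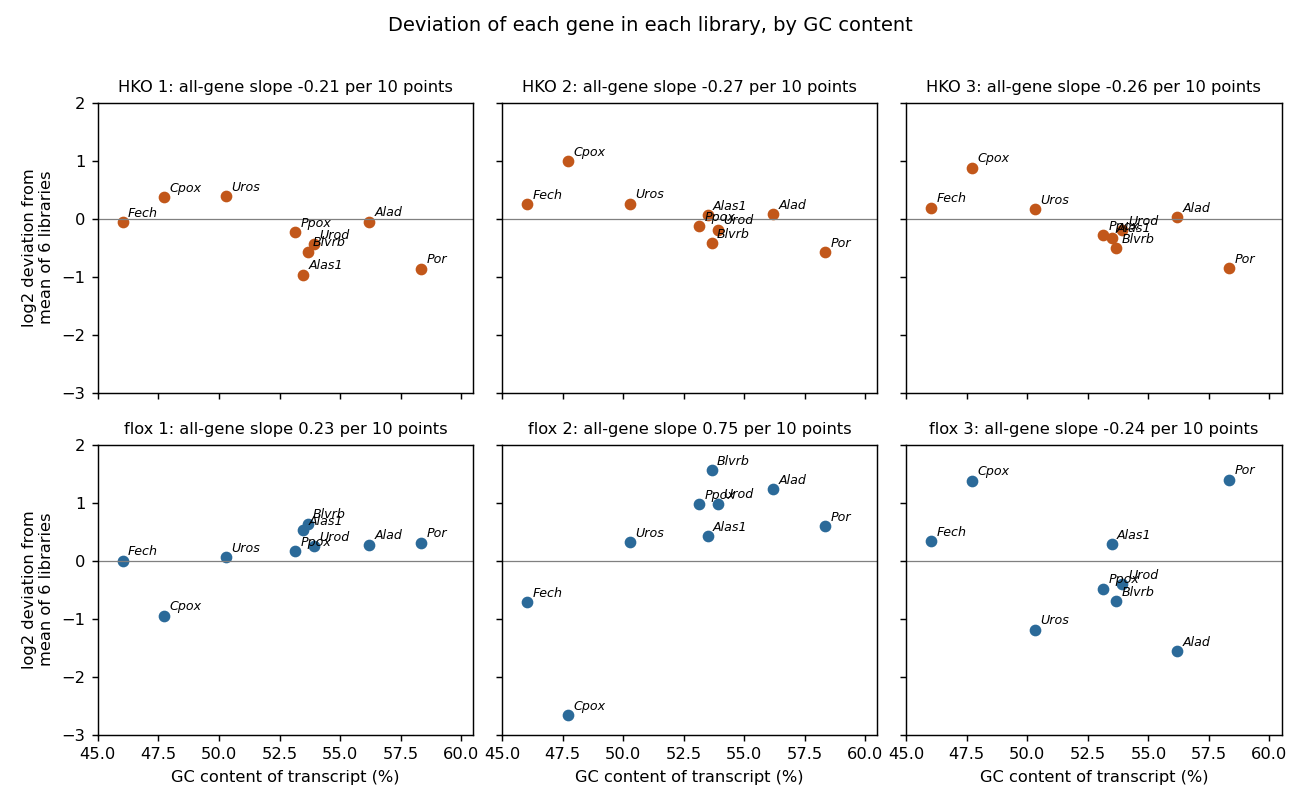
Deviation of each of the 9 genes from its mean over the 6 libraries (log2 scale, vertical axis) against the GC content of its longest transcript in percent (horizontal axis), with libraries labelled HKO above and flox below; panel titles give the slope over all tested genes. In flox 2 the GC-poor genes Cpox and Fech are the only ones below 0, and in flox 3 Cpox and Fech are above 0 together with Por and Alas1.

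Leaving out flox 3 changed what was called. Limma then called 4 of the 9, with Por, Blvrb and Urod lower (3 of 9, against 19.4% of all genes) and Cpox higher (1 of 9, against 21% of all genes) in the libraries labelled HKO. In that fit 40.4% of all genes were called. The Urod value was -0.89 (limma, adjusted p = 0.0366; 0.0114 to 0.700 over all alternatives). With weights estimated for each library limma called 6 of the 9, where it called 56.3% of all genes. Alas1, Urod, Ppox, Blvrb and Por were lower (5 of 9, against 27.8% of all genes) and Cpox was higher (1 of 9, against 28.4%). No other single library left out brought any of the 9 past the threshold.

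**Figure D4:**
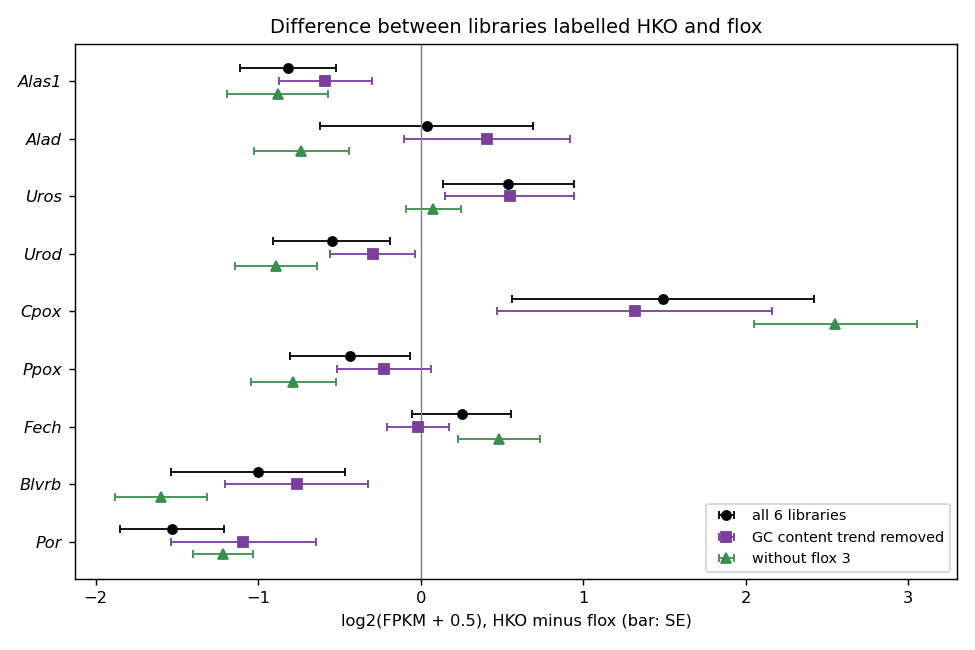
Log2 difference of each gene, HKO minus flox, on the log2(FPKM + 0.5) scale (horizontal axis; bars are SEs from limma) with all 6 libraries, after removal of each library's trend with GC content, and without flox 3. Por, Alas1, Blvrb, Urod and Ppox stay below 0 in all 3 fits, and Cpox and Uros stay above 0. Cpox has the widest bars in the fit of all libraries. Alad has -0.74 without flox 3 and 0.41 after removal of the GC trend.

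The order of the levels per length was clearer among HKO than among flox libraries. In HKO libraries Por (116 FPKM on average) was followed by Alad (80.4), Alas1 (54.6), Fech (47.4), Cpox (44.2), Blvrb (31.8), Urod (26.0), Uros (8.17) and Ppox (3.93). Alas1 and Fech, Fech and Cpox, and Cpox and Blvrb overlapped there, and the other neighbours did not. In flox libraries Por (352 FPKM) stood apart from all others, and every other pair of neighbours overlapped, from Alad (103) and Alas1 (92.8) through Blvrb (77.4), Fech (41.3), Urod (41.2) and Cpox (28.1) to Uros (6.03) and Ppox (6.01).

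Other genes of the pathway were read from lists and given as values, since limma called none of those named in this and the next paragraph. Of 21 tested genes of heme transport, iron supply and breakdown, 0 were called and 8 had an unadjusted p under 0.05, of which 6 were lower and 2 higher in HKO libraries (10.8% and 10.1% of all genes). Groups did not overlap for 7 downward and 3 upward (16.7% and 15.3% of all genes), and the median log2 difference was -0.22. Slc25a28, which encodes the mitochondrial iron importer mitoferrin-2, was at 17.0, 11.8 and 12.6 FPKM in HKO and 27.6, 51.5 and 40.6 FPKM in flox 1, 2 and 3 (limma, adjusted p = 0.157). Hmox1, the inducible heme oxygenase that is high in macrophages, was at 31.5, 21 and 26.4 FPKM in HKO, against 73.8, 75.4 and 40.8 FPKM in flox 1, 2 and 3 (limma, adjusted p = 0.167). Tspo, an outer mitochondrial membrane protein that binds porphyrins, had means of 83.8 ± 7.09 FPKM in HKO and 200 ± 78.7 FPKM in flox libraries (SD, n = 3 each). Iscu, the scaffold for iron-sulfur clusters, had 35.5 ± 1.18 FPKM in HKO and 53.1 ± 4.53 FPKM in flox libraries (SD, n = 3 each). In all 4 the groups did not overlap.

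Regulators of Alas1 included the gene of the lists, other than P450 genes, with the smallest p. Nr1d1, which encodes the clock repressor REV-ERB alpha, was at 1.39, 1.15 and 0.818 FPKM in HKO, against 4.95, 5.21 and 6.87 FPKM in flox 1, 2 and 3. No HKO library came near a flox library, at a log2 difference of -1.93 (SE 0.24; limma, adjusted p = 0.0984). The labels give no time of day. Nr1i2, the xenobiotic receptor PXR, was at 28.0, 39.4 and 36.8 FPKM in HKO and 53.8, 54.5 and 40.8 FPKM in flox 1, 2 and 3. Nr1h4, the bile acid receptor FXR, was at 29.3 ± 2.31 FPKM in HKO and 47.6 ± 16.7 FPKM in flox libraries, and the transcription factor gene Creb1 was at 1.86 ± 0.0848 and 0.808 ± 0.411 FPKM in the same order (SD, n = 3 each). Of 13 tested regulators 0 were called and 2 had an unadjusted p under 0.05, Nr1d1 and Creb1, against 20.9% of all genes. Groups did not overlap for 3 downward and 1 upward (16.7% and 15.3% of all genes), with a median of 0.02.

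**Figure D5:**
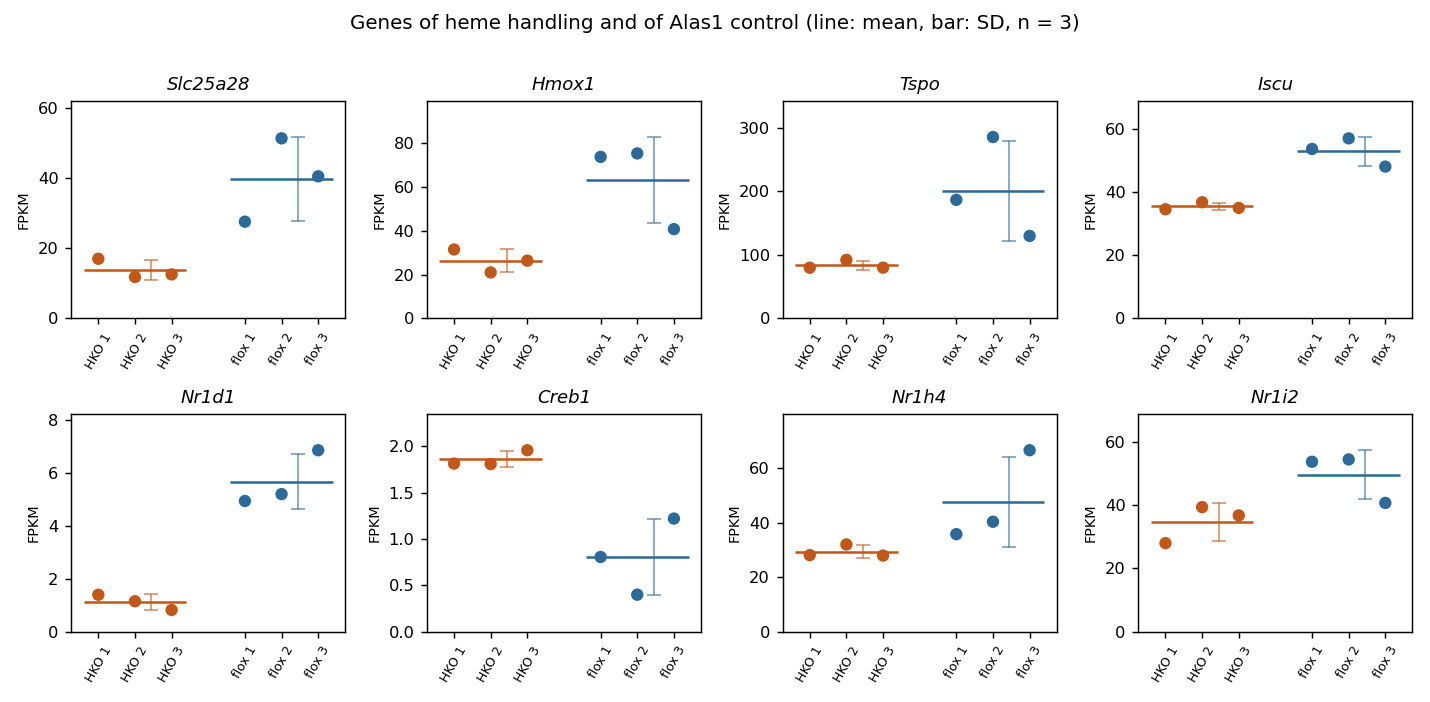
Level in FPKM (vertical axis, linear from 0) of 4 genes of heme handling (upper row) and 4 regulators of Alas1 (lower row) in each library, HKO at the left and flox at the right of each panel; lines are means and bars SDs (n = 3 each). The 8 were picked as the 4 genes of smallest p in each list, so their directions do not stand for the lists. Among them only Creb1 is higher in HKO than in flox libraries. Of all 21 tested genes of heme handling 13 had a negative difference and 8 a positive one. Of the 13 tested regulators 6 were negative and 7 positive. The Nr1d1 values of 0.818 to 1.39 FPKM in HKO stand against 4.95 to 6.87 FPKM in flox libraries.

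Of the 6 other tested electron carriers of P450 enzymes, 5 had a negative difference, as Por had, and 1, Cyb5b, a positive one, with a median of -0.23. Of all tested genes 50.1% had a negative difference. Cyb5b, a cytochrome b5 of the outer mitochondrial membrane, was at 46.3, 58.3 and 61.2 FPKM in HKO, against 43.3, 37.4 and 28.4 FPKM in flox 1, 2 and 3, without overlap (limma, adjusted p = 0.230). Cyb5r3, a cytochrome b5 reductase, was at 62.3 ± 6.43 FPKM in HKO and 93.4 ± 45.6 FPKM in flox libraries, and Fdxr and Fdx1, which feed mitochondrial P450 enzymes, overlapped between groups as Cyb5r3 did. Of the 6 tested carriers 0 were called and 1, Cyb5b, had an unadjusted p under 0.05, against 0.0145% and 20.9% of all genes. Their groups did not overlap for 1 upward and 0 downward (15.3% and 16.7% of all genes). Of 53 tested microsomal P450 genes limma called 1, Cyp2b13, as higher, where it called 0.0145% of all genes in either direction. Cyp2b13 was at 52.7, 59.5 and 42.7 FPKM in HKO, against 0.893, 1.56 and 0.975 FPKM in flox 1, 2 and 3 (limma, adjusted p = 0.00353). An unadjusted p under 0.05 was seen for 25 of the 53, of which 20 were higher and 5 lower (10.1% and 10.8% of all genes). Groups did not overlap for 17 upward and 7 downward (15.3% and 16.7% of all genes). The median log2 difference was 0.31 (0.07 after removal of the GC trend). Cyp3a11, which metabolizes many drugs, was at 636, 754 and 650 FPKM in HKO, against 282, 204 and 191 FPKM in flox libraries (limma, adjusted p = 0.122), a direction opposite to that of Por. Cyp2b10 had 3.37 ± 0.743 FPKM in HKO and 0.442 ± 0.349 FPKM in flox libraries, and Cyp7a1, which starts the classic route of bile acid synthesis, 50.7 ± 22.8 and 10.4 ± 1.68 FPKM in the same order (SD, n = 3 each). Cyp27a1, the tested P450 of mitochondria, was at 86.3 ± 9.13 FPKM in HKO and 121 ± 38.0 FPKM in flox libraries.

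Among other heme proteins of liver, 8 were tested and 0 called, against 0.0145% of all genes. An unadjusted p under 0.05 was seen for 3 (Ido2, Cyc1 and the Cyb5b given above), against 20.9% of all genes. Of these 3, 2 were higher and 1 lower in HKO libraries (10.1% and 10.8% of all genes). Groups did not overlap for 2 upward and 1 downward (15.3% and 16.7% of all genes). Ido2, a tryptophan-cleaving dioxygenase, was at 4.91, 7.48 and 8.94 FPKM in HKO, against 4.32, 3.08 and 3.02 FPKM in flox 1, 2 and 3 (limma, adjusted p = 0.192). Cyc1, the cytochrome c1 of respiratory complex III, was at 96.2, 96 and 96.7 FPKM in HKO, against 144, 217 and 124 FPKM in flox 1, 2 and 3 (limma, adjusted p = 0.217). Its HKO libraries differed by under 1 FPKM. Cycs, which encodes cytochrome c, was at 31.8 ± 0.735 FPKM in HKO and 41.1 ± 11.1 FPKM in flox libraries, with overlap.

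The profiles nearest to Por and to Alas1 over the 6 libraries came from other pathways, among 3539 protein-coding genes averaging 10 FPKM or more. Nearest to Por were Oplah, the oxoprolinase of glutathione turnover (root mean square difference 0.131), Cebpb, a transcription factor of the acute-phase response (0.143), and Tmem120a (0.181). Cebpb, for example, was at 40.8, 53.8 and 47.8 FPKM in HKO and 82.4, 111 and 173 FPKM in flox 1, 2 and 3, the order of Por. Nearest to Alas1 were Bckdha, a subunit of branched-chain keto acid dehydrogenase (0.217), Plin3, a lipid droplet coat protein (0.221), and Creg1 (0.226). The nearest of the 9 genes ranked 291st to Por (Alas1, 0.581) and 964th to Alas1 (Urod, 0.453). The 6 points of each profile share the libraries and their GC trends.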

How the data were processed

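Liver RNA was sequenced in 6 libraries, 3 labelled HKO and 3 flox, and groups were taken from the titles in the labels. The authors deposited FPKM values in a table for each group, per the file headers. TopHat2, HTSeq 0.6.1 and the build GRCm38.p6 appear in the submitters' processing notes, without settings. FPKM times gene length gave whole multiples of 1 read for 100% of values above 0 (tolerance 0.01 of a read). The library sizes inside both tables equalled median-of-ratios size factors over the 6 libraries, so 1 normalization is shared. Recovered reads per library of the 9 genes lay between 145 (Uros) and 31868 (Por).

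Genes averaging 0.5 FPKM or more were tested on log2(FPKM + 0.5) with limma 3.58.1 in R 4.3.3 (group as the term, variances moderated along a trend with the mean, prior degrees of freedom 2.76, two-sided, Benjamini-Hochberg adjustment over all 13787 genes, threshold 0.05). Single values were compared by exact permutation over samples. The code was tested on simulated data. GC content came from GENCODE M21 transcripts, for 13405 tested genes and for all 9 described here. The members, gene lists and tests were chosen with earlier results of these data known. Of each list, the text names up to 4 genes with the smallest p, and the 3 genes nearest in profile to Alas1 and to Por. Alternatives were pseudocounts, filters, scalings (the trimmed-mean scaling written for this work), protein-coding genes alone, moderation, voom on recovered reads, library weights, a replicate block, removal of trends with gene length, and leaving out each library. Removal of trends with GC content was added after seeing the data.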

Additional observations from a re-analysis of the deposited data

How the results depend on the processing

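The number of the 9 genes called stayed at 0 under all alternatives run except without flox 3 (range over left-out libraries 0 to 4) and with library weights (6). The count over all genes, 2 as reported, was 1 with the replicate block, 1 with the gene length trend removed and the block, 4 with the GC content trend removed and 1 with that and the block. It ranged from 0 to 5575 over left-out libraries: 5575 without flox 3, 0 without flox 1 or HKO 2 (1904 and 1236 at an unadjusted p under 0.05) and 1 without HKO 3. Library weights gave 7757 calls, with a weight of 4.75 for flox 1 against 0.172 and 0.108 for flox 2 and 3, so that fit rests on flox 1 (a second way of estimating weights did not converge). Alad turned to -0.24 with library weights and to -0.74 without flox 3 (-0.735 to 0.662 over left-out libraries). Fech turned to -0.0165 with the GC trend removed, with or without the block, and to -0.0410 without flox 2 (-0.0410 to 0.483 over left-out libraries). The cause was not tested. Of the 9 genes, only Alad and Fech changed sign under any of the 23 alternatives. Over all 23, Por was between -1.76 and -0.93 and Alas1 between -1.05 and -0.40. The Por ratio to P450 ran from -1.25 to -1.07 and the Alas1 ratio from -0.84 to -0.19. Upper quartile scaling moved the median of all genes to 0.11, and Por, Alas1, Blvrb, Urod and Ppox stayed negative there.

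The labels give no pairing by replicate number. Deviations of same-numbered libraries correlated across genes at -0.04, -0.09 and 0.07. Of the flox libraries, flox 2 was the one that HKO 1 correlated with best, and flox 3 was that of HKO 2 and of HKO 3. With 3 libraries in each group, these values cannot show whether samples were paired. The replicate block called 0 of the 9.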
